A study of Homo sapiens with 6 samples.

Results

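The genes described here are 39 genes of the presynaptic terminal, coding for proteins of synaptic vesicles, the SNARE fusion machinery and the active zone. They were listed by name, for what their products are known to do. The rule uses no measured value, but earlier results of these data were known when the genes were chosen. All 39 were found among the 57820 genes of the count table, and 38 of them passed the filter on low counts and were tested together with all other genes that passed (17803 in all). RNA came from motor neurons of wild-type genotype made from the human embryonic stem cell line H9. In both groups, progenitors became motor neurons in medium with RA (retinoic acid) and SAG, an agonist of the Hedgehog pathway. Of the 6 libraries, 3 are from cells at normal gravity (NG) and 3 from cells under simulated microgravity (SMG), for which a 2D clinostat rotated the cultures. The comparison asks which of these genes differ between SMG and NG. The labels do not say whether libraries came from separate cultures. The p-values therefore speak of the spread among these 6 libraries alone, and that spread may be technical. All cells come from 1 stem cell line, and no duration of clinostat culture was found in the sources used here.

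A nerve terminal stores transmitter in vesicles, docks and primes them at the active zone, and fuses them with the plasma membrane when calcium enters. Certain synaptotagmins sense the calcium, and SNARE proteins pull the membranes together. Complexins and UNC13 proteins control the fusion step, and large scaffold proteins hold vesicles near calcium channels. Spent vesicle membrane is taken back by endocytosis with dynamin. In motor neurons this machinery serves the neuromuscular junction, where acetylcholine is released onto muscle. These cultures hold no stated muscle partner, and mRNA levels do not measure terminals or release.

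Total counts ranged from 16329907 to 22685870 per library. Levels are given as CPM, counts scaled to a common library size with TMM (a trimmed mean of ratios between libraries), and differences as log2 fold changes, SMG minus NG, with their standard error (SE). A gene was said to rise or fall where the adjusted p of edgeR's quasi-likelihood test was under 0.05. A gene that did not pass is not thereby shown to be equal in both groups. The labelled cell type was checked against markers. All 10 pan-neuronal and all 10 motor neuron markers were detected, among them MNX1 and ISL1, transcription factors of motor neurons, CHAT, which makes acetylcholine, and the neuronal genes MAP2 and TUBB3. Summed motor neuron markers were higher in every SMG library (806 to 832 CPM in NG and 994 to 1032 in SMG), with 7 of 10 higher and the other 3 not passing, where 17.3% of all genes tested were higher. Summed pan-neuronal markers overlapped between the groups (11277 to 12289.5 CPM in NG and 12233 to 12409.8 in SMG; 4 higher and 2 lower of 10). Neural progenitor markers were abundant and overlapped (3829 to 4043 CPM in NG and 3847 to 3984 in SMG; 1 higher and 4 lower of 10). With the length and GC trend described below removed, 5 motor neuron markers were higher and the other 5 did not pass (among them MNX1, at 0.055, and LHX3, at 0.075). Of the pan-neuronal markers 6 were then higher and the other 4 did not pass, STMN2 and ELAVL4, which had fallen, being at 0.00041 and -0.062. Of the progenitor markers 4 were then lower and the other 6 did not pass. The part of these shifts in the results below was not tested. In bulk RNA, fewer cells of a type and less RNA per cell cannot be told apart.

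Other cell types were checked by the same sums. Astrocyte markers summed to 428 to 435 CPM in NG and 418 to 424 in SMG (2 higher and 2 lower of 5 tested), with means over the 6 libraries under 0.5 CPM for GFAP, AQP4, S100B, ALDH1L1 and CD44. Oligodendrocyte lineage markers summed to 419 to 433 CPM in NG and 413 to 426 in SMG (2 higher and 1 lower of 7 tested), with means over the 6 libraries under 0.5 CPM for PDGFRA, SOX10, MOG and MAG. Spinal interneuron markers summed to 30.3 to 35.1 CPM in NG and 31.7 to 32.9 in SMG (1 of 6 tested higher, the other 5 not passing), with means over the 6 libraries under 0.5 CPM for EVX1, GATA3, SIM1 and TLX3. Markers of pluripotent cells summed to 207 to 216 CPM in NG and 208 to 225 in SMG (1 higher and 1 lower of 3 tested), through DNMT3B, LIN28A and DPPA4, with means over the 6 libraries under 0.5 CPM for POU5F1, NANOG, TDGF1, ZFP42 and L1TD1. Markers of mesenchyme, muscle and endothelium (9.33 to 10.2 CPM in NG and 8.67 to 9.24 in SMG) and of peripheral glia and neural crest (2.55 to 2.74 CPM in NG and 1.26 to 2.85 in SMG) were low. Of their 3 and 2 tested genes, 0 passed edgeR's test, 0 had an unadjusted p under 0.05 and 0 passed with DESeq2. Microglia and blood markers were near 0 in every library, all 8 of them under 0.5 CPM.

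Presynaptic genes were more often higher than lower in SMG, by small amounts. Of the 38 tested, 15 rose (39.5%) and 5 fell (13.2%), where 17.3% of all genes tested rose, 18.5% fell and 35.8% did either. The list was chosen with earlier results of these data known, so these shares are a description and not a test of the set. The shares over all genes also varied with GC content and transcript length, as given below. The 3 synapsin genes, the active zone scaffold BSN, the calcium sensor SYT5, the endocytic GTPase DNM1 and the priming factor UNC13A were among those that rose. The synuclein SNCB, the vesicle protein SYNGR1, the synaptotagmin SYT4, the SNARE-recycling ATPase NSF and the endocytic adaptor AMPH fell. The median log2 fold change was 0.095 over the 38 genes and -0.00018 over all genes tested. All 15 rises were under 1.5-fold, as were 4 of the 5 falls, and SNCB was the exception. The groups did not overlap in 23 of the 38 (16 higher and 7 lower), where they did not overlap in 46.3% of all genes tested.

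**Figure D1:**
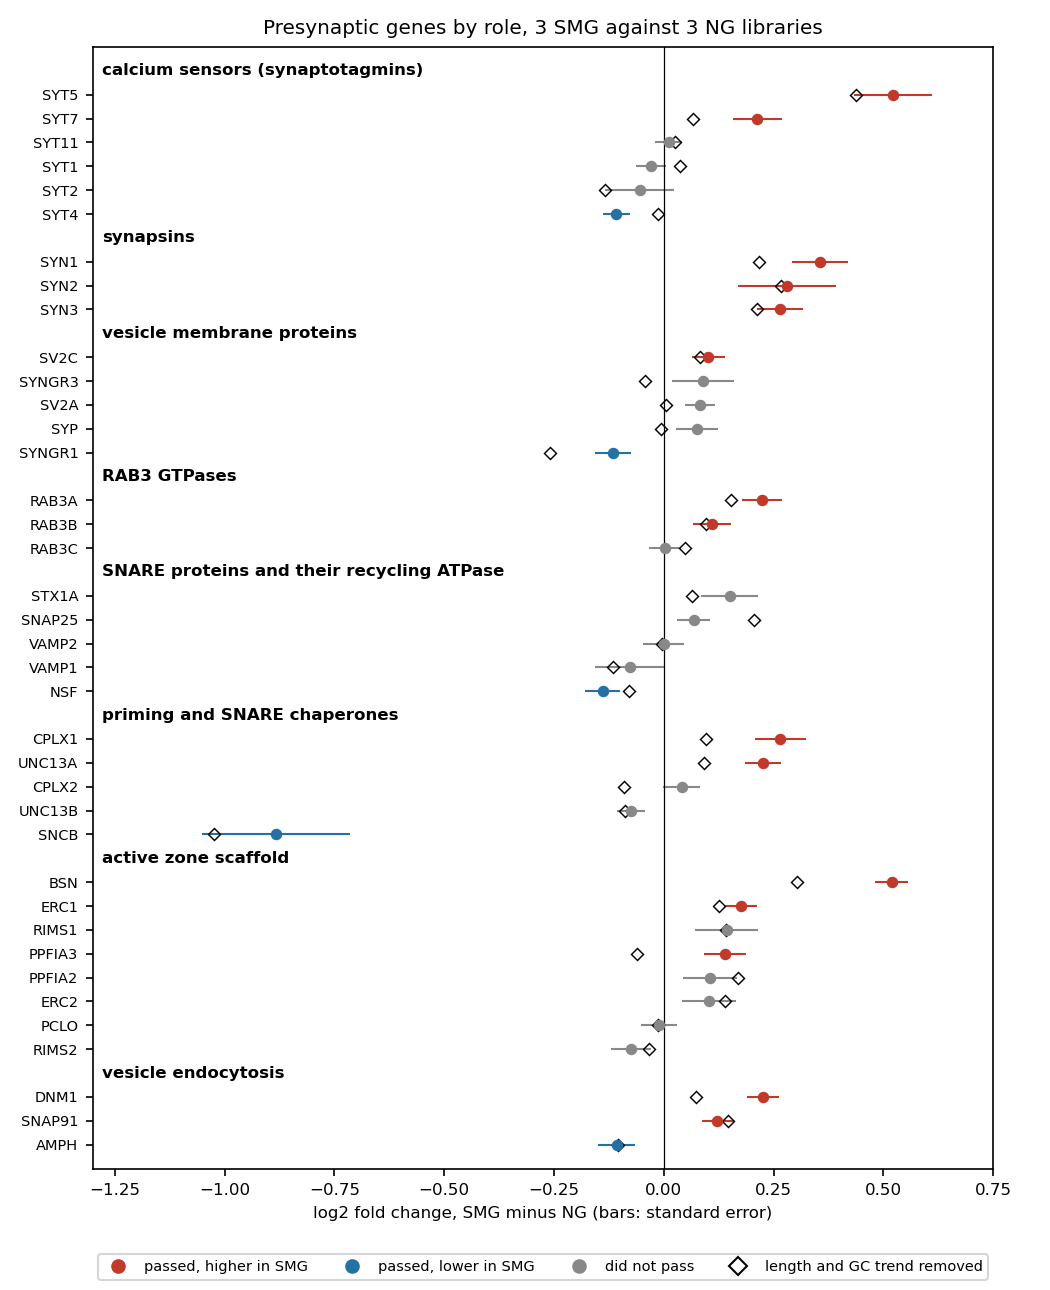
Log2 fold change (horizontal axis, SMG minus NG) of the 38 tested genes by role. Filled circles are the fitted values with their SE, coloured by whether the gene passed, and open diamonds are the values once each library's length and GC trend was removed. All 3 synapsins lie to the right of 0, and SNCB lies apart at -0.88.

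Fold change moved with GC content over all genes tested, and this bears on every role below. All genes were split into 4 equal classes by the GC content of their longest transcript. From the lowest class to the highest, the median log2 fold change went through -0.09, -0.05, 0.03 and 0.14, and the share of genes that rose went from 5.3% to 34.6%. The share that fell went from 32.8% in the lowest class to 6.56% in the highest. Of the 38 presynaptic genes, 14 lay in the highest class, where 8 rose and 2 fell. Of the 6 in the lowest class, SYT4 fell and the other 5 did not pass. In 4 such classes by transcript length, from shortest to longest, 8.03%, 14.1%, 21.6% and 25.6% of genes rose. The shares that fell were 15.6%, 19.2%, 21% and 20.2%. These length classes held 2, 7, 15 and 14 of the 38 presynaptic genes, of which 1, 2, 7 and 5 rose and 1, 0, 4 and 0 fell. The cause of these trends was not tested. When each library's trend with length and GC was removed before the test, 11 presynaptic genes rose and 4 fell, against 15.5% and 15.2% of all genes tested. Of the 15 that had risen, 9 kept the call (SYT5, SYN1, SYN3, SV2C, RAB3A, RAB3B, BSN, ERC1 and SNAP91), as did 3 of the 5 that had fallen (SNCB, SYNGR1 and AMPH). SNAP25 and PPFIA2 joined those that rose and UNC13B those that fell. The median of the 38 was then 0.056.

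**Figure D2:**
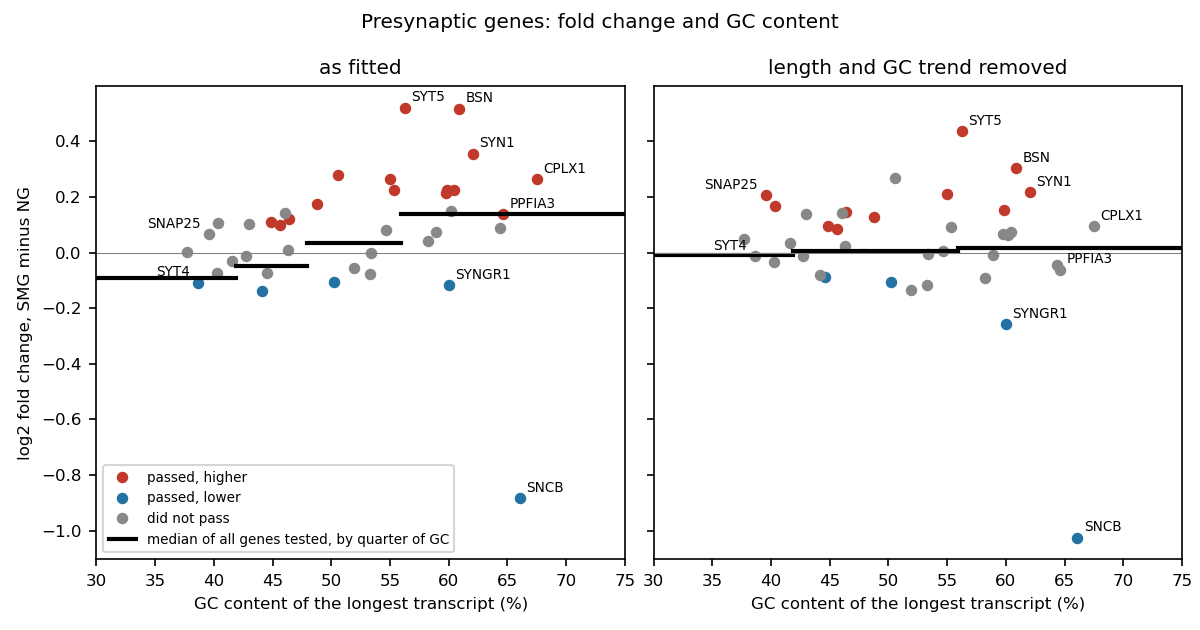
Log2 fold change (vertical axis) of the 38 tested genes against the GC content of their longest transcript in percent, as fitted (left) and after removal of the length and GC trend (right). Black lines are medians of all genes tested in each of 4 classes of GC content, from -0.09 to 0.14 on the left. BSN, SYT5 and SYN1 passed in both panels, and CPLX1 and PPFIA3 only on the left.

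The synaptotagmins did not move as 1 group. Of 6, 2 rose, 1 fell and 3 did not pass, with a median log2 fold change of -0.0095. SYT5, a calcium-binding synaptotagmin of vesicles and secretory granules, was at 9.10, 11.5 and 10.9 CPM in NG and 14.6, 15.1 and 15.2 in SMG. Its 3 SMG libraries lay above every NG library, and it rose (0.52 ± 0.088, adjusted p = 3.34e-05; 0.44 with the trend removed). SYT7, a slower, high-affinity sensor, was at 28.3, 27.2 and 26.5 CPM in NG and 30.5, 32.3 and 32.4 in SMG and rose (0.21 ± 0.057, adjusted p = 0.0039). With the trend removed SYT7 was at 0.066 (adjusted p = 0.372). SYT4, which does not act as a fast calcium trigger, was the most abundant of the set and was at 393, 395 and 391 CPM in NG and 365, 364 and 364 in SMG. It fell by a small amount with no overlap between groups (-0.11 ± 0.031, adjusted p = 0.007), and was at -0.014 (adjusted p = 0.754) with the trend removed.

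The classical fast sensors SYT1 and SYT2 did not pass, and neither did SYT11. SYT1, the main trigger of fast release in many brain synapses, was at 210.2, 207 and 223 CPM in NG and 208, 207 and 212 in SMG (-0.030 ± 0.035, adjusted p = 0.548). SYT2, the fast sensor of mature neuromuscular junctions, was at 15.4, 15.8 and 18.2 CPM in NG and 16.3, 14.6 and 16.4 in SMG (-0.055 ± 0.080, adjusted p = 0.632). In GENCODE 29, 27.2% of the exonic bases of SYT2 lie opposite exons of PPP1R12B, and no source used here says whether the counting used strand, so its counts are uncertain. SYT11, a relative of SYT4, was at 330.2, 333 and 341 CPM in NG and 336, 339.7 and 336 in SMG (0.011 ± 0.032, adjusted p = 0.827). Values of these genes overlapped between NG and SMG.

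All 3 synapsins rose, with a median log2 fold change of 0.28. Synapsins coat the vesicle surface and hold the reserve pool together. SYN1 was at 26.4, 28.8 and 24.2 CPM in NG and 31.5, 35.97 and 34.2 in SMG, with every SMG library above every NG library (0.36 ± 0.064, adjusted p = 7.46e-05). SYN3 was at 46.8, 43.4 and 43.6 CPM in NG and 52.9, 50.6 and 57.4 in SMG and rose by 0.26 ± 0.053 (adjusted p = 2.63e-04), also with no overlap. SYN2, with 82 to 158 counts per library, was at 6.55, 5.05 and 5.67 CPM in NG and 7.22, 7.05 and 6.92 in SMG. It passed by a narrow margin (0.28 ± 0.11, adjusted p = 0.0489) and did not pass with DESeq2 (adjusted p = 0.151). It also did not pass without NG replicate 2 (0.20, adjusted p = 0.216), NG replicate 3 (0.27, adjusted p = 0.091), SMG replicate 1 (0.27, adjusted p = 0.116), SMG replicate 2 (0.28, adjusted p = 0.102) or SMG replicate 3 (0.30, adjusted p = 0.0852). With the trend removed, SYN1 was at 0.22 (adjusted p = 0.00319), SYN3 at 0.21 (adjusted p = 0.00151) and SYN2 at 0.27 (adjusted p = 0.0622). In the annotation, 7.77% of the exonic bases of SYN1 are shared with AL009172.2, a gene that has no row in the count table.

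The promoters of 3 genes are printed with the letters that a motif search found, one each for a synapsin, a scaffold and the deepest fall. RefSeq promoter windows on GRCh38.p14 were matched for 33 of the 39 genes (not SYT7, SYN3, SYNGR3, SNAP25, CPLX1 or RIMS2). The 250 bases before the gene start were searched for exact letters on both strands, so near matches were not counted. The letters were TTCAGCACC and GGACAGCGC, half-sites of RE1, the element that the neuronal gene repressor REST binds, TGACGTCA, the cAMP response element, GGGCGG, the GC box, ACGTG, the core of the hypoxia response element, and CACGTG, an E-box that holds ACGTG within it. Of 35116 windows, 0.288% held the first half-site, 0.427% the other, 1.65% the cAMP response element, 42.6% the GC box, 18.5% ACGTG and 6.35% CACGTG. Of the 33 presynaptic windows, 1 held TTCAGCACC (SYN1), 2 held GGACAGCGC (UNC13A and BSN), 1 held TGACGTCA (SYN1), 24 held the GC box, 7 held ACGTG and 1 held CACGTG (UNC13A). The 35116 windows were not limited to genes tested here, so their shares and those of the presynaptic windows are not of like genes. A match describes letters only. Printed sequences run 5′ to 3′ on the gene's strand, stop where an annotated transcript of GENCODE 29 starts, and show matches in capitals.

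SYN1 is shown because it rose with the other synapsins and holds an exact half-site of RE1 and a cAMP response element. GGACAGTGC, a near match to the other half-site, closely follows TTCAGCACC. It is not in capitals, since the search took exact letters only. The stretch is chrX:47619944-47620107, minus strand, GRCh38.p14, and its matches start 233 bases (TTCAGCACC) and 159 bases (TGACGTCA) before the gene start.
SYN1: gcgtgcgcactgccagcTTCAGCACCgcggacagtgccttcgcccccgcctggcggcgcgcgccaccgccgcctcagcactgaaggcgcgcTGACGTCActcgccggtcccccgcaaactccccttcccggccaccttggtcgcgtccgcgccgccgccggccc

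Vesicle membrane genes showed small differences. Of 5 tested, 1 rose and 1 fell, with a median log2 fold change of 0.083. SV2B, with 4 to 16 counts per library, was too low to test, at 0.754, 0.554 and 0.305 CPM in NG and 0.378, 0.180 and 0.394 in SMG. SV2C, a glycoprotein of vesicles, was at 132, 127 and 135 CPM in NG and 142, 134 and 146 in SMG (0.10 ± 0.038, adjusted p = 0.0378). Its groups overlapped, and it did not pass with DESeq2 (adjusted p = 0.0808). Nor did it pass without NG replicate 1 (0.11, adjusted p = 0.0787), NG replicate 2 (0.078, adjusted p = 0.16), SMG replicate 1 (0.097, adjusted p = 0.105) or SMG replicate 3 (0.071, adjusted p = 0.243). SV2A, the target of the antiepileptic drug levetiracetam, was at 155, 151 and 152 CPM in NG and 165, 160.3 and 159.8 in SMG (0.083 ± 0.034, adjusted p = 0.0592), with all SMG libraries above all NG libraries. SYNGR1, a synaptogyrin of the vesicle membrane, was at 75.6, 79.1 and 79.5 CPM in NG and 70.7, 71.9 and 73.2 in SMG, lower in every SMG library. It fell (-0.12 ± 0.042, adjusted p = 0.0295) and was at -0.26 with the trend removed (adjusted p = 7.14e-06). It did not pass with DESeq2 (adjusted p = 0.0846), nor without NG replicate 2 (-0.11, adjusted p = 0.0812), NG replicate 3 (-0.10, adjusted p = 0.0547), SMG replicate 1 (-0.10, adjusted p = 0.108), SMG replicate 2 (-0.12, adjusted p = 0.0788) or SMG replicate 3 (-0.13, adjusted p = 0.0522). Its relative SYNGR3 was at 17.4, 16.6 and 16.8 CPM in NG and 18.8, 17.4 and 18.00 in SMG (0.090 ± 0.070, adjusted p = 0.344). SYP, synaptophysin, the most used marker of synaptic vesicles, was at 74.6, 76.98 and 87.5 CPM in NG and 83.4, 84.6 and 83.2 in SMG (0.075 ± 0.048, adjusted p = 0.233). NG replicate 3 had its highest value of all 6, and SYP passed without NG replicate 3 (0.15, adjusted p = 0.00299). With the trend removed SYP was at -0.0073.

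RAB3 proteins are small GTPases that bring vesicles to the active zone, and 2 of 3 rose, with a median log2 fold change of 0.11. RAB3A, the main neuronal form, was at 69.7, 74.5 and 65.6 CPM in NG and 78.8, 84.2 and 81.9 in SMG. Every SMG library lay above every NG library (0.22 ± 0.046, adjusted p = 3.13e-04; 0.15 with the trend removed). RAB3B was at 80.01, 75.1 and 82.2 CPM in NG and 84.3, 83.3 and 88.6 in SMG (0.11 ± 0.043, adjusted p = 0.0453), also with no overlap. It did not pass with DESeq2 (adjusted p = 0.0987), nor without NG replicate 1 (0.12, adjusted p = 0.0805), NG replicate 2 (0.075, adjusted p = 0.222), SMG replicate 1 (0.12, adjusted p = 0.0698), SMG replicate 2 (0.13, adjusted p = 0.0594) or SMG replicate 3 (0.081, adjusted p = 0.241). RAB3C, the most abundant of these genes in CPM, was at 252, 235 and 247 CPM in NG and 242, 241 and 251 in SMG (0.0016 ± 0.034, adjusted p = 0.977) and its groups overlapped. In the annotation, 9.08% of the exonic bases of RAB3A lie opposite exons of MPV17L2.

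Of the 5 genes of the SNARE core and its recycling, NSF alone passed, and it fell. Their median log2 fold change was -0.0001. The fusion complex joins VAMP on the vesicle with STX1A and SNAP25 on the plasma membrane, and NSF takes spent complexes apart. SNAP25 was at 108, 110.1 and 109.7 CPM in NG and 111, 116 and 116 in SMG (0.068 ± 0.037, adjusted p = 0.161). It has a low GC content (39.6%), and with the trend removed it was at 0.21 and passed (adjusted p = 2.38e-05). Its SMG libraries lay above all NG libraries, by a narrow gap. STX1A was at 19.8, 22.4 and 21.5 CPM in NG and 23.2, 23.98 and 23.3 in SMG (0.15 ± 0.064, adjusted p = 0.0695), with all SMG libraries above all NG libraries, and it passed without NG replicate 2 (0.19, adjusted p = 0.0444). VAMP2, the main vesicle SNARE of brain, was at 98.6, 102 and 114 CPM in NG and 100.2, 105 and 108 in SMG (-0.00010 ± 0.047, adjusted p = 0.999), and its sign depended on the scaling. VAMP1, the vesicle SNARE prominent at neuromuscular junctions, was at 14.2, 14.7 and 14.4 CPM in NG and 14.2, 12.7 and 14.2 in SMG (-0.077 ± 0.080, adjusted p = 0.488), and its SMG values were all lower than its NG values, at the nearest by less than the rounding. NSF was at 87.7, 84.3 and 87.2 CPM in NG and 77.8, 79.6 and 78.2 in SMG and fell (-0.14 ± 0.040, adjusted p = 0.00698), but was at -0.079 (adjusted p = 0.0914) with the trend removed. NSF shares sequence with the pseudogene NSFP1, 17.9% of the exonic bases of STX1A lie opposite BUD23, 13.2% of those of VAMP2 are shared with AC129492.3 on the same strand, and 9.47% of those of VAMP1 overlap TAPBPL, so these counts are uncertain.

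Among genes of priming and SNARE chaperones, 2 of 5 rose and 1 fell, with a median log2 fold change of 0.041. UNC13A, which makes docked vesicles ready to fuse, was at 73.7, 74.3 and 74.6 CPM in NG and 83.5, 86.9 and 89.9 in SMG. Its groups did not overlap, and it rose by 0.23 ± 0.041 (adjusted p = 8.30e-05), or was at 0.091 (adjusted p = 0.0619) with the trend removed. UNC13B, its broadly expressed relative, was at 330.0, 326 and 324 CPM in NG and 318, 307 and 306 in SMG (-0.074 ± 0.032, adjusted p = 0.0714; -0.088 with the trend removed, adjusted p = 0.0161). Its SMG libraries were all lower than its NG libraries, and it passed without NG replicate 3 (-0.078, adjusted p = 0.0384). Complexins clamp and then promote SNARE-driven fusion. CPLX1 was at 31.96, 33.4 and 29.99 CPM in NG and 37.8, 40.9 and 36.00 in SMG and rose (0.27 ± 0.059, adjusted p = 7.23e-04). It has the highest GC content of the set (67.5%) and was at 0.096 (adjusted p = 0.177) with the trend removed. CPLX2 was at 82.8, 85.8 and 81.2 CPM in NG and 82.1, 84.6 and 90.1 in SMG (0.041 ± 0.042, adjusted p = 0.491; -0.091 with the trend removed).

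SNCB, beta-synuclein, a presynaptic protein of the synuclein family, had the deepest fall of the set. Its counts were low, from 41 to 78 per library, and its level was 3.39, 4.80 and 4.33 CPM in NG and 1.94, 1.98 and 2.76 in SMG. Every SMG library lay below every NG library, and the level was 1.85-fold lower in SMG (-0.88 ± 0.17, adjusted p = 1.42e-04). With the trend removed it was at -1.02 (adjusted p = 1.74e-05), and it passed without each library in turn. SNCG, gamma-synuclein, was at 150.3, 159.9 and 148 CPM in NG and 126, 136 and 124 in SMG and fell (-0.25 ± 0.040, adjusted p = 1.99e-05). The promoter of SNCB, shown as that of the gene with the deepest fall, is chr5:176630557-176630784, minus strand, GRCh38.p14. The capitals mark 3 GC boxes, which start 99, 59 and 34 bases before the gene start (on the minus, minus and plus strand of the gene).
SNCB: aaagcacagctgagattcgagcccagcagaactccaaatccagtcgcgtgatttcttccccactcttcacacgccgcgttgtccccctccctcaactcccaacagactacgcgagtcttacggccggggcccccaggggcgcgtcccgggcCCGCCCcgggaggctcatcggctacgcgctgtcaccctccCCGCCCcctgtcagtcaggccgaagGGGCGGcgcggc

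In the active zone scaffold 3 of 8 genes rose and the other 5 did not pass, with a median log2 fold change of 0.12. BSN, bassoon, a very large protein that with piccolo organises the active zone, was at 111, 111 and 105 CPM in NG and 155, 153 and 162 in SMG. The 3 SMG libraries stood clear of the 3 NG libraries. It rose by 0.52 ± 0.037, or 1.43-fold (adjusted p = 1.05e-11), and by 0.30 with the trend removed (adjusted p = 3.09e-09). PCLO, piccolo, its partner of similar size, was at 82.1, 84.6 and 87.95 CPM in NG and 84.3, 82.8 and 85.4 in SMG (-0.011 ± 0.040, adjusted p = 0.862), and its groups overlapped. ERC1, an ELKS protein that binds RIM and bassoon, was at 97.7, 95.3 and 93.1 CPM in NG and 108, 106 and 109 in SMG and rose (0.18 ± 0.037, adjusted p = 5.21e-04; 0.13 with the trend removed). Its relative ERC2 was at 25.1, 22.2 and 24.1 CPM in NG and 26.4, 24.7 and 25.8 in SMG (0.10 ± 0.062, adjusted p = 0.208).

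Of the 4 RIM and liprin-alpha genes, PPFIA3 passed. RIMS1, a RIM protein that tethers vesicles and calcium channels, was at 17.3, 15.95 and 18.2 CPM in NG and 18.8, 18.1 and 20.01 in SMG (0.14 ± 0.073, adjusted p = 0.129). RIMS2 was at 62.99, 59.2 and 64.3 CPM in NG and 58.5, 59.3 and 59.3 in SMG (-0.075 ± 0.045, adjusted p = 0.21). Liprins-alpha recruit active zone proteins early in assembly. PPFIA3 was at 72.1, 74.2 and 64.9 CPM in NG and 73.4, 78.8 and 80.5 in SMG, with overlapping groups, and passed (0.14 ± 0.048, adjusted p = 0.0254). It did not pass with DESeq2 (adjusted p = 0.0558) or without NG replicate 3 (0.089, adjusted p = 0.106), SMG replicate 2 (0.13, adjusted p = 0.101) or SMG replicate 3 (0.11, adjusted p = 0.152), and with the trend removed its sign turned (-0.061, adjusted p = 0.242). PPFIA2 was at 29.4, 26.8 and 32.7 CPM in NG and 31.7, 31.7 and 32.3 in SMG (0.11 ± 0.062, adjusted p = 0.19) and passed with the trend removed (0.17, adjusted p = 0.0193) and without NG replicate 3 (0.18, adjusted p = 0.0163). In the annotation, 19.7% of its exonic bases lie opposite exons of ACSS3, so its counts are uncertain.

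BSN's promoter is shown because BSN had the smallest adjusted p of the 38 genes and its window holds the other half-site of RE1. SYT5 had a slightly larger log2 fold change (0.522, against 0.518 for BSN). Its window held GC boxes alone of the letters searched and is not printed. The stretch is chr3:49554227-49554476, plus strand, GRCh38.p14. The capitals mark a GC box 163 bases before the gene start, on the minus strand, and GGACAGCGC at 121 bases.
BSN: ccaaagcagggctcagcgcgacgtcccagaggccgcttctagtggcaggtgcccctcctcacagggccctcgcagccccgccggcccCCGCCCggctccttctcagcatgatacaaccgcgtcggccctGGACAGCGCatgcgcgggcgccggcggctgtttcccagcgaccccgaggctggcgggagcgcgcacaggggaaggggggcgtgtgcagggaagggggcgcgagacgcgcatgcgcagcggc

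All 3 genes of vesicle endocytosis passed, 2 higher and 1 lower, with a median log2 fold change of 0.12. DNM1, the neuronal dynamin that cuts vesicles from the membrane, was at 122, 131 and 127 CPM in NG and 149.7, 146 and 149 in SMG and rose (0.23 ± 0.036, adjusted p = 1.43e-05). It was at 0.073 (adjusted p = 0.0986) with the trend removed, and it shares sequence with many DNM1 pseudogenes, so its counts are uncertain. SNAP91, the clathrin adaptor AP180, was at 124, 121 and 118 CPM in NG and 135, 131 and 129.7 in SMG and rose (0.12 ± 0.036, adjusted p = 0.00865; 0.15 with the trend removed). The call was lost without SMG replicate 1 (0.11, adjusted p = 0.0527). AMPH, amphiphysin, which brings dynamin to curved membrane, was at 75.1, 77.97 and 78.4 CPM in NG and 73.2, 69.8 and 71.7 in SMG, lower in every SMG library. It passed narrowly (-0.11 ± 0.042, adjusted p = 0.0452), and the call was lost when any 1 of the 6 libraries was left out (-0.13 to -0.090, adjusted p from 0.0538 to 0.174) or with DESeq2 (adjusted p = 0.118).

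**Figure D3:**
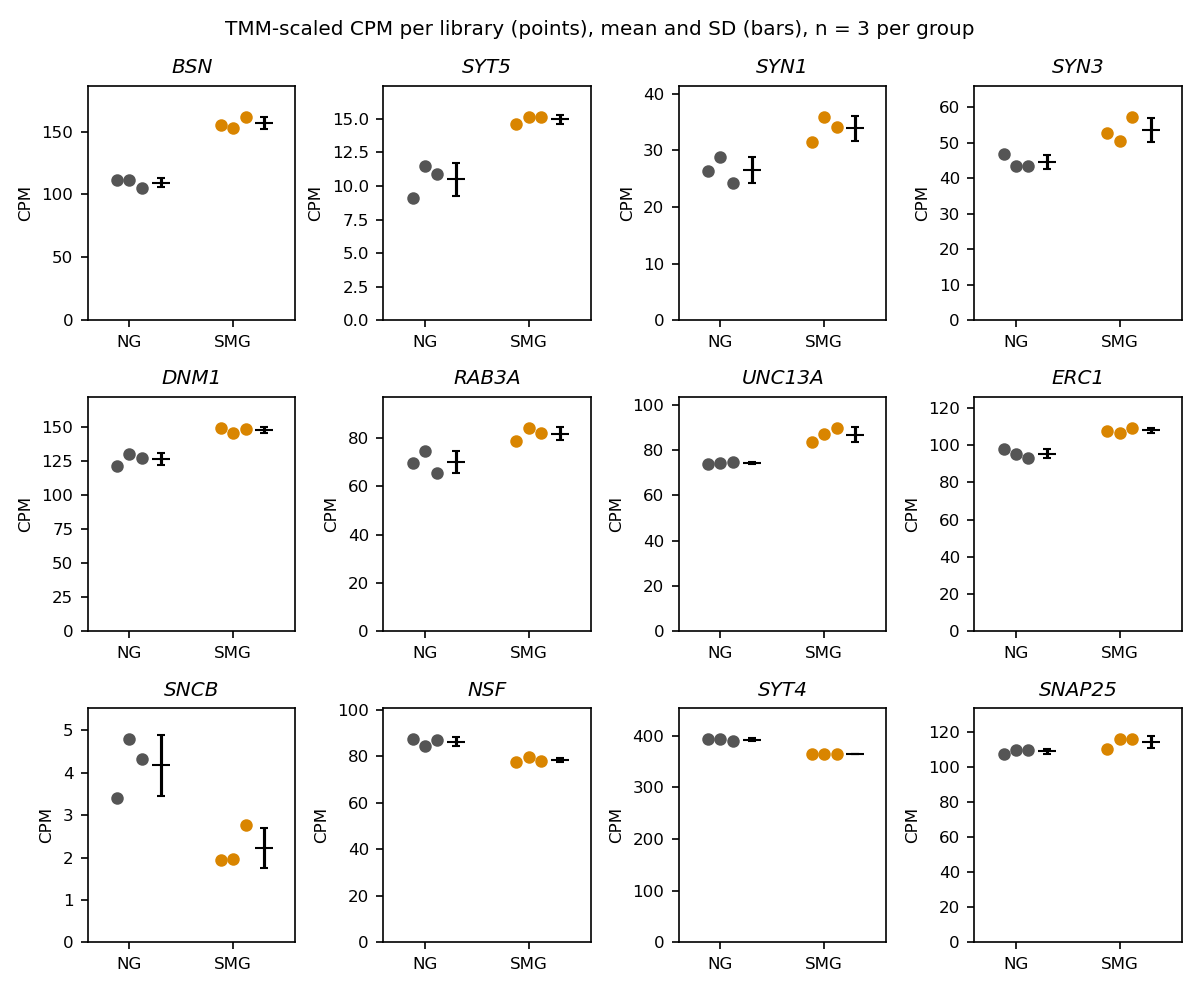
TMM-scaled CPM (vertical axes, from 0) of 12 presynaptic genes in each of the 3 NG and 3 SMG libraries (points), with the mean and SD beside them. The groups do not overlap in any of the 12, and the gap in CPM is widest for BSN, at 109 ± 3.57 CPM in NG and 157 ± 4.67 in SMG.

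Levels of different genes were compared per kilobase of the longest annotated transcript, which need not be the form expressed here. On this scale, in NG, SYT4 was highest at 95.6 ± 0.514 CPM per kb, followed by SYT11 at 63.9 ± 1.11. VAMP2 (48.7 ± 3.83), SNAP25 (48.4 ± 0.603), RAB3A (45.8 ± 2.93) and SYT1 (44.4 ± 1.77) came next (mean ± SD, n = 3), and neighbours among these 4 did not differ beyond their spread. In the middle of the order stood UNC13B at 22.4 ± 0.224 and CPLX2 at 16.6 ± 0.465. SYT5, at 2.77 ± 0.325, and SYN2, at 1.49 ± 0.195, were near the low end, with SYT2 at 2.16 ± 0.197. SYT2 and VAMP1 (4.19 ± 0.0609), the forms typical of mature neuromuscular junctions, thus stood far below SYT1 and VAMP2 in both groups. SV2B was lowest, at 0.0477 CPM per kb in NG and 0.0281 in SMG.

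**Figure D4:**
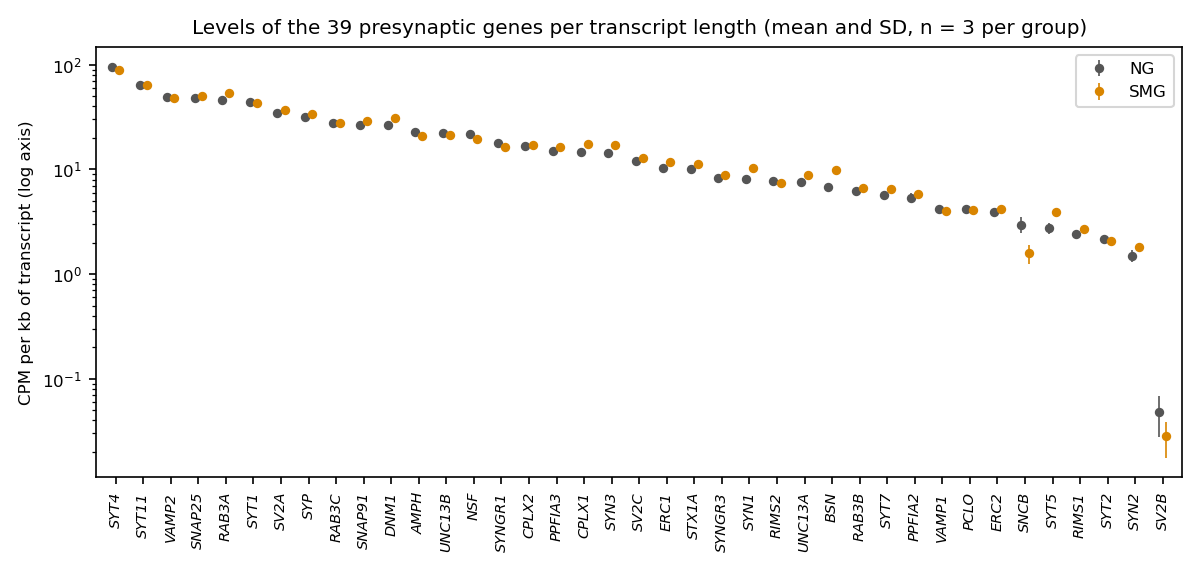
Levels of the 39 genes in CPM per kb of transcript (vertical log axis), ordered by their NG mean, with NG and SMG means and SD (n = 3 libraries each). The order runs from SYT4, at 95.6 in NG, to SYN2 at 1.49, with SV2B far below at 0.0477.

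Related genes were also set against each other within each library, since their ratio does not depend on library scaling. For 8 pairs the log2 ratio was compared between groups by a two-sided exact permutation test. With 3 against 3 libraries the smallest p this test can give is 0.10. The BSN to PCLO ratio had the largest difference of the 8. It was 0.36 ± 0.095 in NG and 0.90 ± 0.024 in SMG (mean ± SD, n = 3), a difference of 0.53 with no overlap (exact p = 0.10, adjusted over the 8 pairs 0.267). The CPLX1 to CPLX2 ratio was -1.39 ± 0.041 in NG and -1.16 ± 0.14 in SMG (mean ± SD, n = 3), a difference of 0.23 with no overlap (exact p = 0.10, adjusted 0.267). For RIMS1 to RIMS2 it was -1.86 ± 0.034 in NG and -1.64 ± 0.074 in SMG (mean ± SD, n = 3), a difference of 0.22, again with no overlap (exact p = 0.10, adjusted 0.267). With the length and GC trend removed these differences were 0.32, 0.19 and 0.17. The groups overlapped in the other 5 pairs, whose differences were 0.078 for SYT1 to SYT4, 0.055 for SYN1 to SYN2, -0.017 for SV2A to SV2C, 0.11 for RAB3A to RAB3B and -0.079 for VAMP1 to VAMP2 (exact p from 0.30 to 0.80).

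**Figure D5:**
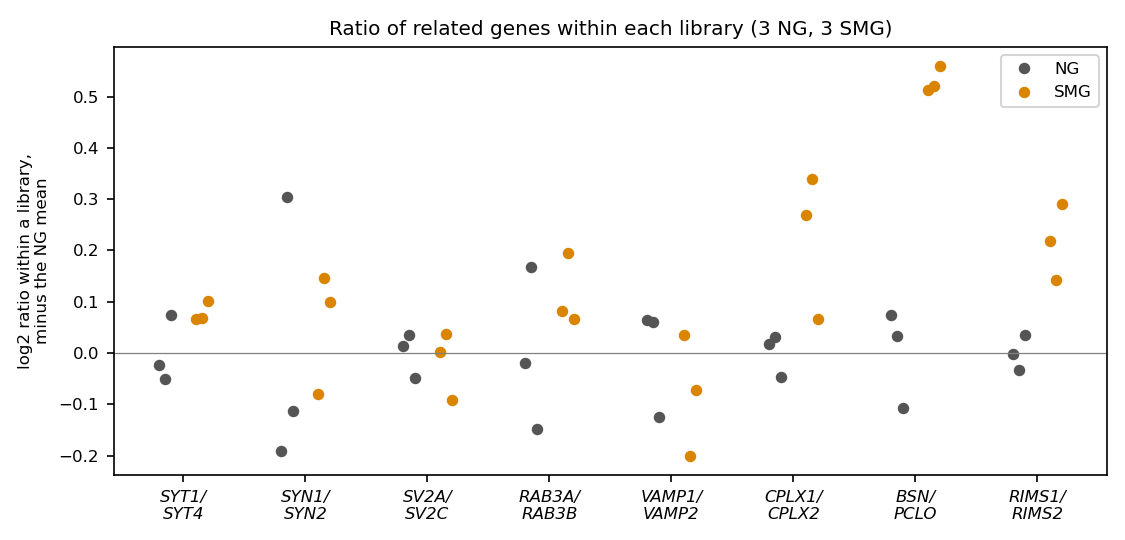
Log2 ratio of 2 related genes within each library, minus the NG mean of the pair (vertical axis), for 8 pairs in 3 NG and 3 SMG libraries. The SMG points lie above all NG points for CPLX1/CPLX2, BSN/PCLO and RIMS1/RIMS2 and mix with them in the other 5 pairs.

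Other genes of related families and steps, 129 in all, of which 121 were tested, gave 35 higher (28.9%) and 18 lower (14.9%), beside the 17.3% and 18.5% of all genes tested. Not all of them are particular to the presynaptic terminal, since they include SNAREs and RAB proteins of other membrane traffic. These lists, too, were chosen with earlier results of these data known. Their median log2 fold change was 0.049, and with the length and GC trend removed 31 rose and 14 fell. Of other synaptotagmins and calcium sensors 3 of 12 rose and 9 did not pass. SYT3 was at 0.55 ± 0.12 and DOC2A, a high-affinity calcium sensor, at 0.49 ± 0.096. Of other SNAREs and their binding proteins 5 of 28 rose and 7 fell. STX4, a syntaxin of the plasma membrane, was at 11.2, 13.3 and 10.5 CPM in NG and 13.97, 14.4 and 14.6 in SMG and rose (0.30 ± 0.087, adjusted p = 0.0084), while VAMP4 (-0.30 ± 0.068) and STXBP6 (-0.48 ± 0.086) fell.

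Of other vesicle membrane genes and chaperones 2 of 14 rose and 3 fell. TPRG1L was at 0.23 ± 0.065 and DNAJC5, a chaperone of SNAP25, at 0.18 ± 0.037, while SYPL1, a relative of synaptophysin, fell (-0.43 ± 0.059). Of other RAB GTPases and RAB3 partners 3 of 10 rose and 2 fell. RAB11B, a GTPase of recycling endosomes (0.42 ± 0.071), and RAB3D (0.30 ± 0.061) rose, and both subunits of the RAB3 GTPase-activating complex, RAB3GAP1 (-0.18 ± 0.042) and RAB3GAP2 (-0.12 ± 0.038), fell. With the trend removed DNAJC5 (adjusted p = 0.19) and RAB3GAP2 (adjusted p = 0.0946) did not pass. Of 4 other priming genes 0 passed with edgeR, 2 were higher at an unadjusted p under 0.05 and 0 passed with DESeq2.

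Of other active zone genes 9 of 20 rose and 2 fell. APBA1, a MINT adaptor protein, was at 0.37 ± 0.049 and TSPOAP1, a RIM-binding protein, at 0.35 ± 0.052. PPFIA4, another liprin-alpha, was at 62.9, 62.8 and 64.9 CPM in NG and 20.4, 23.7 and 23.4 in SMG, with no overlap, and fell by 1.49 on the log2 scale (adjusted p = 1.67e-18). PPFIA1 was at 0.015 ± 0.044 and did not pass (adjusted p = 0.823), so of 4 liprin-alpha genes 1 fell, 1 (PPFIA3, whose sign turned with the trend removed) rose and 2 did not pass (PPFIA1 and PPFIA2, of which PPFIA2 passed with the trend removed). LIN7A also fell (-0.29 ± 0.046). Of other endocytosis genes 13 of 33 rose and 4 fell, with GAK (0.35 ± 0.059) and FCHO1 (0.34 ± 0.078) higher, and FCHO2 (-0.22 ± 0.056) and EPS15 (-0.19 ± 0.036) lower.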

How the data were processed

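RNA-seq libraries of H9-derived motor neurons, 3 NG and 3 SMG, were made with an mRNA library kit, per the labels' protocols. The authors deposited raw counts per Ensembl gene. Per the submitters' processing notes, the tools included featureCounts, HISAT2, SAMtools and DESeq2, with build hg19. Their versions, the annotation, strand use and the handling of multiply mapped reads were not given in the sources used here. Symbols were found for 52338 of 57820 genes in a table of gene names and GENCODE 29. GENCODE 29 is on another build, so it served for names, lengths, GC content and exon overlaps. No gene coordinates of the count table are given, and promoter coordinates are those of RefSeq on GRCh38.p14.

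Genes were filtered with filterByExpr, scaled by TMM and tested with edgeR's quasi-likelihood test (robust), two-sided, with Benjamini-Hochberg adjustment over all 17803 genes tested and a threshold of 0.05. At a mean of 10 CPM or more, SEs of log2 fold changes had a median of 0.0524. Paralog ratios used a prior count of 0.5. Alternatives were DESeq2, its size factors, no filter, at least 1 CPM in 3 samples, a replicate block, removal of the length and GC trend (natural splines with 3 degrees of freedom fitted on 15073 genes, entered as offsets), that trend with the block, and leaving out each library. The test was checked on simulated data. Members and lists were chosen with earlier results of these data known. All members are named, and of each other list up to 2 genes that passed with the highest and 2 with the lowest fold change, except results that are not reported here. Marker genes LHX1 and PECAM1 were not analysed here. DESeq2 1.42.0, limma 3.58.1 and edgeR 4.0.16 ran under R 4.3.3. Within each group, any pair of libraries differed beyond sampling noise, with a chi-square of 1.53 to 3.11 for each degree of freedom.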

Additional observations from a re-analysis of the deposited data

How the results depend on the processing

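Of the 20 presynaptic genes that passed, 7 kept their call and direction under all 13 alternatives run: SYT5, SYN1, SYN3, RAB3A, BSN and ERC1 higher, and SNCB lower. The count of higher genes was 15, and 10 to 16 under the alternatives. The count of lower genes was 5, but 3 with DESeq2, 3 without a filter and 3 to 4 without 1 library (3 without NG replicate 2 or any 1 SMG library). The median log2 fold change was 0.095, but 0.056 with the length and GC trend removed, 0.055 with the trend removed and the replicate block together, and 0.074 to 0.11 without 1 library. The other genes of related families and steps gave 31 to 39 higher and 13 to 22 lower. With the replicate number as a block 15 were higher and 4 lower, AMPH being the call lost. Same-numbered libraries did not deviate together (correlations 0.00975, 0.0574 and -0.0122), and NG replicate 3 correlated best with SMG replicate 1, so the numbers are not taken to pair the libraries.

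The sign turned with the length and GC trend removed for SYT1 0.036, SYP -0.0073, SYNGR3 -0.043, CPLX2 -0.091, PPFIA3 -0.061 and the ratio SYN1/SYN2 -0.072. The sign turned with that trend removed and the replicate block for SYT1 0.035, SYP -0.0079, SYNGR3 -0.039, CPLX2 -0.094 and PPFIA3 -0.062. The sign turned without a filter for VAMP2 0.011 and PCLO 5.0e-05. It also turned with DESeq2 for VAMP2 0.0011, with its size factors for VAMP2 0.0024, with at least 1 CPM in 3 samples for VAMP2 0.0031. Without 1 library, ranges that crossed 0 were SYT1 -0.051 to 0.0050, SYT2 -0.11 to 0.021, RAB3C -0.027 to 0.026, VAMP2 -0.043 to 0.067, PCLO -0.034 to 0.018, the ratio SYN1/SYN2 -0.041 to 0.21 and the ratio SV2A/SV2C -0.045 to 0.019. Except for PPFIA3, the genes whose sign turned had not passed, with fitted values from -0.055 (SYT2) to 0.090 (SYNGR3). The causes were not tested. Depth limits SNCB, SYN2 and SV2B most, at 41 to 78, 82 to 158 and 4 to 16 counts per library.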

Other observations

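Of the genes that load transmitter into vesicles, SLC18A3 rose, and SLC17A6, SLC17A7, SLC18A2 and SLC32A1 did not pass. SLC17A8, a vesicular glutamate transporter with 1 to 9 counts per library, was too low to test. SLC17A6, also a vesicular glutamate transporter, was at 10.6, 8.07 and 9.26 CPM in NG and 9.91, 8.98 and 8.32 in SMG (-0.049 ± 0.10, edgeR adjusted p = 0.752), and SLC17A7, another, at 1.37, 1.11 and 0.975 CPM in NG and 0.944, 0.943 and 0.963 in SMG (-0.30 ± 0.25, adjusted p = 0.385). SLC18A2, the vesicular monoamine transporter, was at 9.90, 8.44 and 9.14 CPM in NG and 10.1, 9.34 and 9.02 in SMG (0.042 ± 0.095, adjusted p = 0.769). SLC32A1, which loads GABA and glycine, was listed with 2 to 18 counts per library, at 0.471, 0.431 and 0.122 CPM in NG and 0.850, 0.584 and 0.526 in SMG (0.87 ± 0.41, adjusted p = 0.0972), higher in 3 of 3 SMG libraries than in any NG library. SLC10A4, an orphan transporter found on cholinergic and monoaminergic vesicles, was at 19.6, 19.95 and 19.4 CPM in NG and 19.9, 20.3 and 19.1 in SMG (0.0074 ± 0.066, adjusted p = 0.945). SLC18A3, which loads acetylcholine and served above as a motor neuron marker, was at 54.5, 55.4 and 45.8 CPM in NG and 82.04, 82.8 and 82.5 in SMG and rose (0.66 ± 0.053, adjusted p = 4.91e-10). CADPS, which primes dense-core vesicles, was at 136, 138 and 135 CPM in NG and 141, 147 and 144 in SMG (0.072 ± 0.035, adjusted p = 0.109), with every SMG library above every NG library and no call.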
